A study of Mus musculus with 6 samples.

Results

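*Phospho1* and the enzymes that build phosphatidylcholine and phosphatidylethanolamine were examined in inguinal subcutaneous white fat (iWAT) of *Hlx* transgenic mice. The set is a list of 10 genes, *Phospho1*, *Chka*, *Chkb*, *Pcyt1a*, *Pcyt2*, *Chpt1*, *Cept1*, *Pemt*, *Etnk1* and *Pisd*, each matched by its symbol to the deposited table of 19445 gene loci. A row was found for 9 of the 10, each on a single locus, and *Chkb*, a choline and ethanolamine kinase, was not analysed here. The genes were chosen by their role in the pathway and by the measured FPKM difference between these genotypes, so the comparison of these genes between genotypes is a description, and where a threshold or an adjusted p of theirs is mentioned it is not evidence of a difference. The study asked how the homeobox transcription factor *Hlx* remodels white fat toward brown-like fat, and this series sequenced iWAT RNA of 3 transgenic mice and 3 wild-type littermates, 1 library per mouse, at 12 weeks of age. The transgene was full-length *Hlx* cDNA driven by the *aP2* (*Fabp4*) promoter, which is active in adipocytes, and it had been introduced into C57BL/6 × SJL hybrid embryos and then crossed back to C57BL/6. The labels give no treatment for either genotype. The labels do not say how many founder lines the transgenic mice represent.

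Phosphatidylcholine and phosphatidylethanolamine are the main phospholipids of cell and mitochondrial membranes and of the surface of lipid droplets. Each can be made by a branch of the Kennedy pathway, and the branches run in parallel. A kinase phosphorylates choline (*Chka*, *Chkb*) or ethanolamine (*Etnk1*, and *Chka* and *Chkb* to some extent), a second enzyme activates the product as CDP-choline (*Pcyt1a*) or CDP-ethanolamine (*Pcyt2*), and a transferase joins it to diacylglycerol (*Chpt1* for choline, *Cept1* for either). *Pisd* makes phosphatidylethanolamine separately, by decarboxylating phosphatidylserine at the mitochondrial inner membrane, and *Pemt*, best known in liver, methylates phosphatidylethanolamine to phosphatidylcholine. *Phospho1* acts against the first step, since it removes the phosphate from phosphocholine and phosphoethanolamine, and it is best known as a phosphatase of matrix vesicles in mineralizing cartilage and bone.

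Expression is given as FPKM, the density of reads over the transcript's length, scaled to the mapped reads of the library. Levels can therefore be set side by side between genes and between mice, but each is relative to the rest of its library. Between genes they also depend on how reads were assigned, which is uncertain where genes overlap or have near-identical copies. Fold changes are differences of mean log2(FPKM + 1), transgenic minus wild type, and shrink toward 0 for genes of low FPKM. The summed FPKM of a library lay between 466059 and 542096. Depth in reads is unknown, and relative depth, read from the spacing of the lowest values, ran from 0.692 to 1.41 with wild-type replicate 3 set to 1. *Hlx* was at 6.88, 7.35 and 8.14 FPKM in the wild-type mice and at 110, 79.6 and 99.5 FPKM in the transgenic mice, so every library matched its genotype label. The values do not separate transgene from endogenous transcripts. *Xist*, the RNA that coats the inactive X chromosome of female cells, was between 20.2 and 33.6 FPKM in all 6 libraries and the 28 Y chromosome loci were at 0 in each, whereas the labels give male mice. Both genotypes were alike in this, and the sex of the mice is therefore not stated below. Adipocyte markers (*Adipoq*, *Plin1*, *Fabp4*, *Cidec*, *Lipe*, *Lep*) summed to 23904 to 29610 FPKM in wild-type and 28199 to 33447 FPKM in transgenic mice, as the tissue label implies, and of the 6 only *Adipoq* passed the test, with lower levels in transgenic mice (limma adjusted p = 0.0172).

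*Phospho1* stood far apart from the rest of the pathway. It was at 13.7, 8.47 and 10.4 FPKM in the wild-type mice (mean 10.9 ± 2.66, SD, n = 3) and at 253, 164 and 199 FPKM in the transgenic mice (mean 205 ± 44.8, SD, n = 3). The lowest transgenic mouse was 11.9 times the highest wild-type mouse, and the ratio of the means was 18.9. The log2 fold change was 4.12 (standard error 0.21, 95% interval 3.64 to 4.61), the third highest of the 11692 loci that passed the expression filter (mean of either genotype above 1 FPKM), to which all comparisons across loci refer. Wild-type mice varied among themselves by 24.4% (coefficient of variation) and transgenic mice by 21.8%. With any single mouse left out the log2 fold change stayed between 3.96 and 4.29. In bulk tissue RNA, more cells expressing a gene and more of its RNA per cell cannot be told apart, which holds for every level given here.

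**Figure D1:**
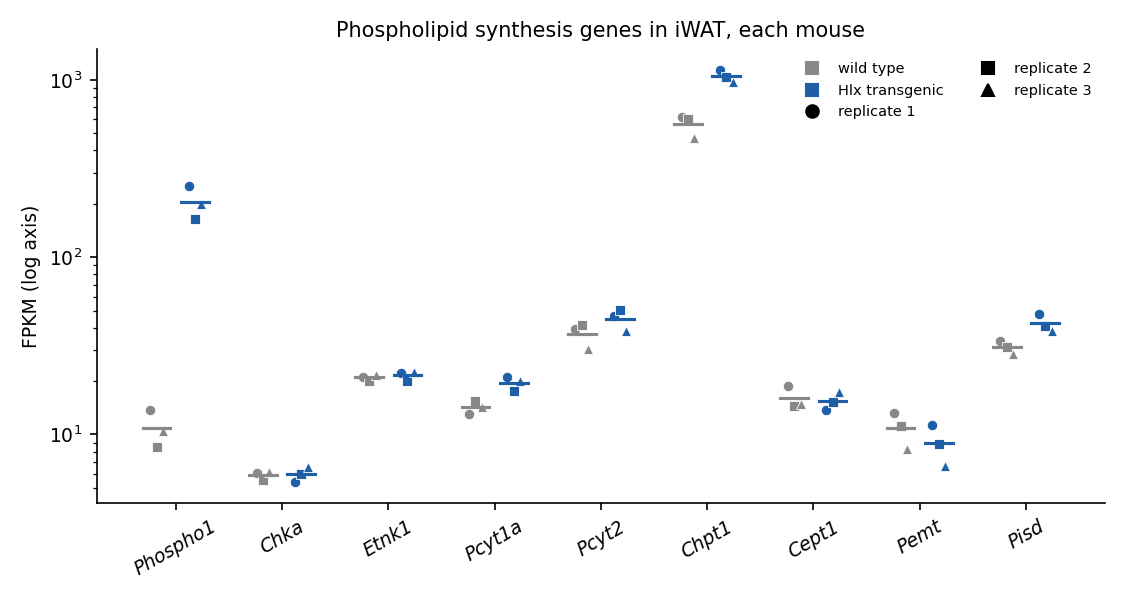
FPKM of the 9 genes in each mouse on a log axis, with wild type in grey, *Hlx* transgenic in blue, replicates 1 to 3 as circle, square and triangle, and a bar at the mean of each genotype. *Phospho1* lies between 164 and 253 FPKM in transgenic mice and between 8.47 and 13.7 FPKM in wild-type mice, *Chpt1* is the highest gene in both genotypes, and most other genes lie close together.

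The locus of *Phospho1* is crowded, and this bears on how its reads could be assigned. In the GENCODE M21 annotation of mm10, *Phospho1* lies on chromosome 11 from 95824499 to 95832140, on the plus strand. Of its 2029 exonic bases, 84.2% are also exonic in *Abi3*, which runs on the opposite strand, and 89.6% lie within an exon of a transcript of its upstream neighbour *Zfp652* on the same strand. The library kit does not mark strand, so reads from the bases shared by *Phospho1* and *Abi3* cannot be parted by strand. *Abi3*, an adaptor of actin regulators in leukocytes, was at 6.19, 8.89 and 7.87 FPKM in wild-type and 9.33, 9.46 and 6.88 FPKM in transgenic mice (log2 fold change 0.14, limma adjusted p = 0.543). *Zfp652*, a zinc finger repressor, was at 8.60, 8.75 and 9.42 FPKM in wild-type and 7.59, 8.11 and 7.47 FPKM in transgenic mice (log2 fold change -0.19, limma adjusted p = 0.13). Neither of these overlapping neighbours passed the test, but their levels come from the same assignment of reads and cannot check it. *Gngt2*, a G protein gamma subunit assigned to the same locus of the table, rose from 67.5 ± 8.99 to 92.2 ± 4.86 FPKM (SD, n = 3 each, log2 fold change 0.45, limma adjusted p = 0.0362).

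The sequences just upstream of *Phospho1* and *Chpt1* are shown because these were the genes with the largest differences of the set. They come from the RefSeq promoter table (GRCm38.p6, the assembly of mm10) and are printed 5′ to 3′ on the strand of the gene, as far as the first annotated exon. Capitals mark GC boxes (GGGCGG, read as CCGCCC on the other strand) and CCAAT boxes (CCAAT or ATTGG).
Phospho1, chr11:95824250-95824498, plus strand: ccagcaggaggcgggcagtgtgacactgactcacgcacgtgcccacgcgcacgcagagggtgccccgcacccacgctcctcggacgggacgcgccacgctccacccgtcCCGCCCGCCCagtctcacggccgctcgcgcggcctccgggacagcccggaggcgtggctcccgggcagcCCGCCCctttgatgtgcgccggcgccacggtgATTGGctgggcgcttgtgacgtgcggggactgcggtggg
Chpt1, chr10:88504074-88504220, minus strand: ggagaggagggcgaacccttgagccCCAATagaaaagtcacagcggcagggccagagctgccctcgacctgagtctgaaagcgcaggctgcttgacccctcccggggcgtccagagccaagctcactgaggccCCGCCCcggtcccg
The *Phospho1* stretch is 75.5% G and C over 249 bases and holds 3 GC boxes, of which a pair overlap, and 1 CCAAT box. The *Chpt1* stretch is 67.3% G and C over 147 bases with 1 of each, and is shorter because an annotated exon begins inside its window. Over full windows of the 250 bases before the RefSeq start, *Phospho1* and *Chpt1* are both 75.6% G and C, with 3 GC boxes for *Phospho1* and 5 for *Chpt1*. The median of all 32851 such windows in the RefSeq table is 52.4%, and 96.7% of them lie at or below 75.6%.

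Promoter windows were found for 8 of the 9 genes, with *Pcyt2* missing, and 7 short motifs were searched on both strands in the 250 bases before each start. Some genes have several starts, so the 8 genes have 14 windows. Windows of the same gene can overlap, so some GC boxes of *Pcyt1a* and *Cept1* are counted in more than 1 window. Not every *Cept1* window opened an annotated GENCODE transcript. A GC box was in 8 of the 14 windows, against 32.7% of all windows, and these belong to 6 genes (*Phospho1*, *Chka*, *Pcyt1a*, *Chpt1*, *Cept1*, *Etnk1*), where 35.4% of all genes have a match in any window. A CCAAT box was in 5 of the 14 windows, against 33.8%, of 5 genes (*Phospho1*, *Chka*, *Chpt1*, *Pemt*, *Pisd*), against 37.5% of genes. The TATA box (TATAAA, 12.4% of all windows), the cyclic AMP response element (TGACGTCA, 1.55%), the nuclear receptor half-site (AAGGTCA, 4.08%), its direct repeat bound by PPAR and RXR (AGGTCA repeated after 1 base of any kind, which can overlap the half-site, 0.0335%) and the homeodomain core (TAATTA, 4.84%) were in 0 of the 14 windows. These are matches of letters in a short window and say nothing about binding. The paper's own search for Hlx sites used a different, Hlx-specific motif and regions reaching farther upstream, so these windows do not repeat it.

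The 2 kinases of the first step that could be tested were level between genotypes. No row was found for *Chkb*, and *Etnk2* was too low to be tested. *Chka*, choline kinase alpha, was at 6.05, 5.51 and 6.17 FPKM in wild-type and at 5.39, 6.002 and 6.59 FPKM in transgenic mice. Its groups overlapped, and the ratio of means was 1.01 (log2 fold change 0.01, 95% interval -0.21 to 0.24). *Etnk1*, ethanolamine kinase, was at 21.1, 20.1 and 21.7 FPKM in wild-type and at 22.3, 19.9 and 22.6 FPKM in transgenic mice. It overlapped too, with a ratio of 1.03 (log2 fold change 0.04, 95% interval -0.15 to 0.23). For these 2 kinases the 95% intervals reach at most 0.24 on the log2(FPKM + 1) scale in either direction. *Phospho1* and *Chka* act on opposite sides of phosphocholine, and the ratio of their FPKM within a mouse was 2.27, 1.54 and 1.69 in wild-type mice and 46.9, 27.3 and 30.2 in transgenic mice.

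Of the enzymes that make the CDP-bound forms, a step usually regarded as rate-limiting, *Pcyt1a* was higher in transgenic mice and *Pcyt2* overlapped. *Pcyt1a*, on the choline branch, was at 13.0, 15.4 and 14.3 FPKM in wild-type and at 21.1, 17.7 and 19.9 FPKM in transgenic mice. The groups were apart, with a ratio of means of 1.37 and a log2 fold change of 0.43 (95% interval 0.20 to 0.66). In the annotation, 7.65% of the exonic bases of *Pcyt1a* overlap *Slc51a* on the other strand, and no row was found under that symbol. *Pcyt2*, on the ethanolamine branch, was at 39.4, 41.3 and 30.2 FPKM in wild-type and at 46.5, 50.3 and 38.4 FPKM in transgenic mice. All except the third transgenic mouse lay above every wild-type mouse, and the ratio was 1.22 (log2 fold change 0.28, 95% interval -0.07 to 0.64). The level of *Pcyt2* relative to *Pcyt1a* was 2.60 ± 0.463 in wild-type and 2.33 ± 0.470 in transgenic mice (SD, n = 3), a difference smaller than the spread between mice.

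At the last step the choline-specific enzyme and the dual enzyme parted. *Chpt1*, which joins CDP-choline to diacylglycerol, was by far the most abundant transcript of the pathway, at 621, 603 and 472 FPKM in wild-type and at 1139, 1044 and 975 FPKM in transgenic mice. The lowest transgenic mouse was 1.57 times the highest wild-type mouse, and the ratio of means was 1.86 (log2 fold change 0.90, standard error 0.15, 95% interval 0.55 to 1.25). In absolute terms the difference between its means was the largest of the set. *Cept1*, which takes CDP-choline or CDP-ethanolamine, was at 18.7, 14.5 and 14.8 FPKM in wild-type and at 13.7, 15.2 and 17.4 FPKM in transgenic mice, with overlapping groups and a log2 fold change of -0.05 (95% interval -0.35 to 0.25). *Chpt1* relative to *Cept1* within a mouse went from 35.5 ± 5.33 to 69.3 ± 13.6 (SD, n = 3). *Chpt1* lies on chromosome 10 from 88452745 to 88504073, and 7.93% of its exonic bases overlap *Sycp3*, a synaptonemal complex gene on the other strand, which rose from 7.49 ± 1.32 to 14.4 ± 2.77 FPKM (SD, n = 3 each, log2 fold change 0.86, limma adjusted p = 0.0128). *Cept1* shares 24.7% of its exonic bases with *Dennd2d* (14.4 and 12.2 FPKM on average in wild-type and transgenic mice, limma adjusted p = 0.29) and 5 bases with *Dram2*, which rose from 37.9 to 58.0 FPKM (limma adjusted p = 0.0175). Reads from these stretches cannot be assigned by strand.

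The routes outside the Kennedy pathway differed from each other. *Pisd*, the mitochondrial decarboxylase, was at 33.8, 31.0 and 28.3 FPKM in wild-type and at 48.0, 40.8 and 38.3 FPKM in transgenic mice. The groups were apart, with a ratio of 1.36 and a log2 fold change of 0.43 (95% interval 0.17 to 0.69). In the annotation, 20.1% of the exonic bases of *Pisd* are also exonic in *Gm20671* on the same strand, and no row was found under that symbol. Near-identical copies also make the assignment of *Pisd* reads uncertain. The most expressed copy, *Pisd-ps1*, was at 12.8, 17.7 and 18.3 FPKM in wild-type and 13.3, 16.5 and 18.6 FPKM in transgenic mice, with overlapping groups. *Pemt*, the methyltransferase, was at 13.2, 11.2 and 8.28 FPKM in wild-type and at 11.3, 8.87 and 6.63 FPKM in transgenic mice, which overlapped, and its log2 fold change was -0.27 (95% interval -0.77 to 0.24). Both genotypes spread widely for *Pemt*, so neither a moderate fall nor a small rise is outside its interval.

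**Figure D2:**
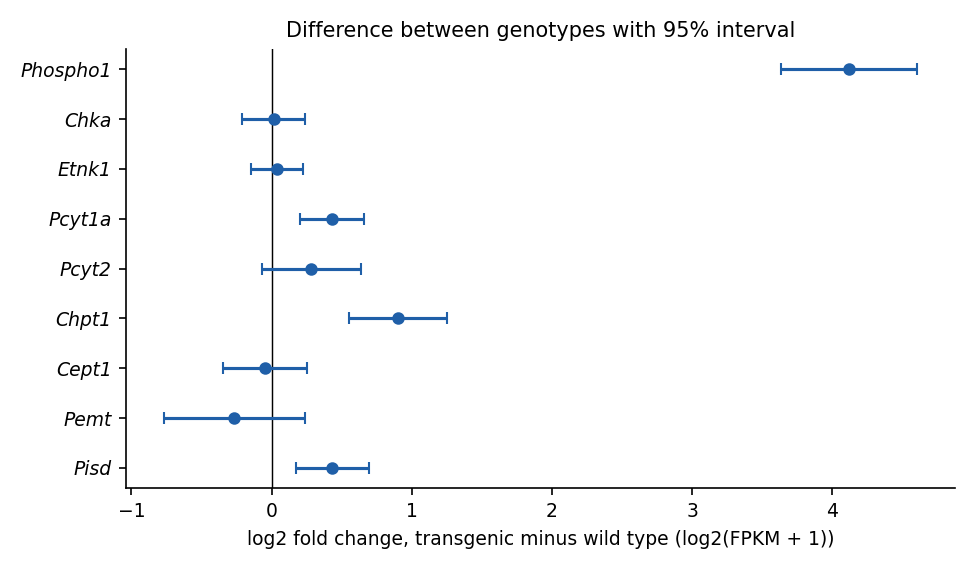
Log2 fold change of each of the 9 genes (horizontal axis, transgenic minus wild type on the log2(FPKM + 1) scale) with its 95% interval from the limma fit over all tested loci. *Phospho1* at 4.12 lies far to the right, *Chpt1*, *Pisd* and *Pcyt1a* lie above 0 with intervals that do not reach 0, and the intervals of the other 5 genes include 0.

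All 9 genes passed the expression filter. At an adjusted p under 0.05 over the 11692 loci, 4 of them counted as higher (*Phospho1*, *Chpt1*, *Pcyt1a*, *Pisd*) and 0 as lower, where 11.6% of all tested loci were higher and 7.03% lower. The same 4 genes were those whose groups did not overlap, where 22.8% of all loci had every transgenic mouse above every wild-type mouse and 20.1% the reverse. Nothing is read from these counts, since the genes were listed with this contrast known. The median log2 fold change of the 9 genes was 0.28, or 0.16 without *Phospho1*, beside -0.01 over all tested loci. The count itself moved with single mice. *Pcyt1a* lost its place without wild-type replicate 1 or 3 or without transgenic replicate 1 or 3 (adjusted p 0.0683 to 0.0818, limma), and *Pisd* without wild-type replicate 2 or 3 or any 1 of the transgenic mice (adjusted p 0.056 to 0.114, limma).

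The order of the genes by level changed mainly through *Phospho1*. In wild-type iWAT the order by mean FPKM was *Chpt1* (565), *Pcyt2* (36.9), *Pisd* (31.1), *Etnk1* (21.0), *Cept1* (16.0), *Pcyt1a* (14.3), *Pemt* (10.9), *Phospho1* (10.9) and *Chka* (5.91). Neighbours whose mice overlapped were *Pcyt2* and *Pisd*, *Cept1* and *Pcyt1a*, *Pcyt1a* and *Pemt*, and *Pemt* and *Phospho1*. In transgenic iWAT *Phospho1* (205 FPKM) came second after *Chpt1* (1053 FPKM), clear of *Pcyt2* (45.1) below it, and *Chka* was still last. The overlapping neighbours there were *Pcyt2* and *Pisd*, and *Etnk1* and *Pcyt1a*. *Phospho1* made up 1.54% of the summed FPKM of the 9 genes in wild-type and 14.4% in transgenic mice, whereas *Chpt1* made up 79.3% and 74.4%.

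Mouse by mouse, *Phospho1* was set beside the transgene and beside *Ucp1*, the uncoupling protein that marks thermogenic fat. *Ucp1* was at 57.8, 17.5 and 35.5 FPKM in wild-type and at 634, 541 and 600 FPKM in transgenic mice. Within each genotype the mice had the same order for *Phospho1* as for *Ucp1*, with replicate 1 highest and replicate 2 lowest. The order for *Hlx* was the same in transgenic mice and different in wild-type mice, where replicate 1 had the highest *Phospho1* and the lowest *Hlx*. The ratio of *Phospho1* to *Ucp1* was 0.338 ± 0.1296 in wild-type and 0.345 ± 0.0492 in transgenic mice (SD, n = 3), so the transcripts differed by similar factors between genotypes. The ratio of means was 18.9 for *Phospho1* and 16.0 for *Ucp1*.

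**Figure D3:**
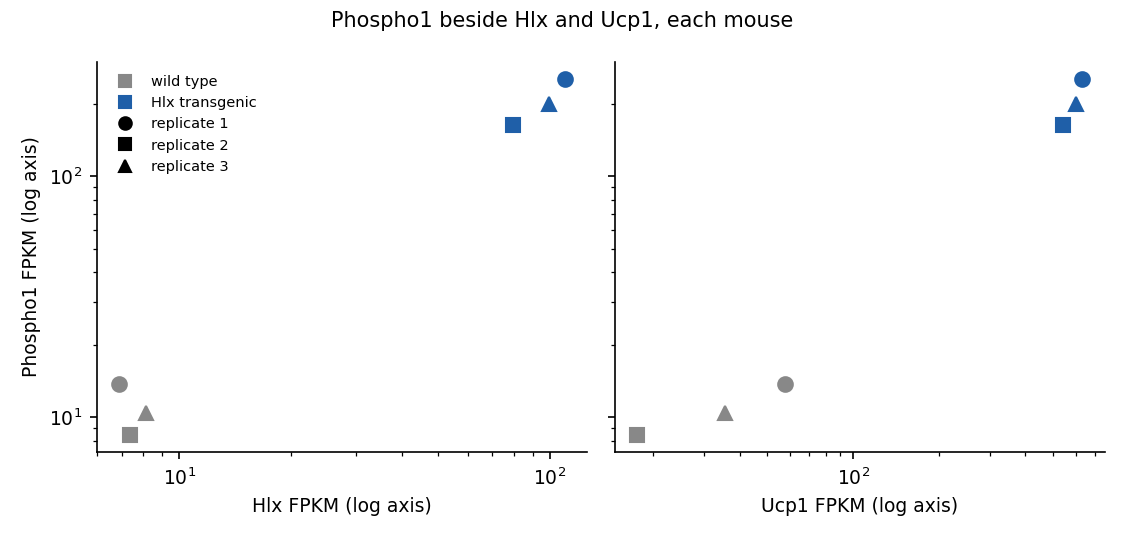
*Phospho1* FPKM (vertical, log axis) against *Hlx* FPKM (left) and *Ucp1* FPKM (right, both log axes) in each mouse, with wild type in grey, transgenic in blue and a marker shape per replicate. The genotypes form separate groups in both panels, and within each group the mice are in the same order for *Phospho1* and *Ucp1*.

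The loci whose log2(FPKM + 1) was most like that of *Phospho1* over the 6 mice were *Lace1* (Pearson r = 0.9998), *Hadha* (0.9996), *Cox7a1* (0.9995), *Adck3* (0.9995) and *Mto1* (0.9992). Their scale of change varied widely, from 70.7 to 1210 FPKM on average for *Cox7a1*, a subunit of cytochrome c oxidase, to 11.1 to 19.6 FPKM for *Mto1*, which takes part in the modification of mitochondrial tRNA. Likeness of this kind was common, since r was above 0.95 at 752 of the other 11691 loci, and the genotypes form separate groups for *Phospho1*. With the mean of each genotype subtracted, the most alike were *Ptdss2* (r = 0.999), *Iqsec1* (0.9967), *Acadl* (0.9961), *Skp1a* (0.9937) and *Magoh* (0.9936), out of 131 loci above 0.95. These values describe 6 mice in 2 groups, share library depth and carry no test.

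Genes around the pathway that the list did not contain were counted in 10 groups. Of 74 genes, 69 had a row and 55 passed the expression filter, and 8 of these rose and 4 fell at an adjusted p under 0.05, that is 14.5% and 7.27% beside 11.6% and 7.03% of all tested loci. The median log2 fold change over the 55 was 0.06. The adjusted p of these genes is from limma over all 11692 loci. As the groups were chosen with earlier results of the same mice known, their counts are a description too.

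A group of 5 genes was listed beside the CDP-choline and CDP-ethanolamine branches. Of these, *Pcyt1b* (mean 0.239 and 0.282 FPKM in wild-type and transgenic mice), *Etnk2* (0.155 and 0.126 FPKM) and *Etnppl*, a phosphoethanolamine lyase (0.00898 and 0.0147 FPKM), were too low to be tested. *Selenoi*, the ethanolamine-specific partner of *Chpt1* (named *Ept1* in the table), was at 5.06, 5.12 and 5.23 FPKM in wild-type and 4.81, 4.61 and 5.67 FPKM in transgenic mice, which overlapped (log2 fold change -0.03, adjusted p = 0.844 by limma). *Phospho2* was listed as the closest relative of *Phospho1*, not as a step of these branches. It was at 9.58, 9.30 and 9.68 FPKM in wild-type and 13.3, 11.7 and 14.3 FPKM in transgenic mice (log2 fold change 0.42, standard error 0.09, adjusted p = 0.0209 by limma). *Phospho2* rose far less than *Phospho1* differed, and the ratio of *Phospho1* to *Phospho2* was 1.14 ± 0.267 in wild-type and 15.6 ± 2.89 in transgenic mice (SD, n = 3). The call of *Phospho2* was lost without any 1 of the mice except transgenic replicate 2 (adjusted p 0.0552 to 0.0706).

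Choline enters cells through transporters of the *Slc44a* family, and 3 of the 8 transport genes listed could be tested. *Slc44a3* rose from 15.1, 11.5 and 11.1 FPKM in wild-type to 18.8, 16.5 and 17.0 FPKM in transgenic mice (log2 fold change 0.45, standard error 0.12, adjusted p = 0.0461 by limma). This call was near the threshold and was lost without any 1 mouse other than wild-type replicate 1 (adjusted p 0.0669 to 0.136). *Slc44a1*, the best known choline transporter of the family, had means of 23.1 and 24.1 FPKM (log2 fold change 0.06, adjusted p = 0.555), and *Slc44a2* 28.2 and 23.3 FPKM (log2 fold change -0.27, adjusted p = 0.108).

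Synthesis of phosphatidylserine and its transfer into mitochondria supply the substrate of *Pisd*, and 2 of 5 genes rose, with 0 lower. *Ptdss2*, which makes phosphatidylserine from phosphatidylethanolamine, was at 20.1, 16.7 and 18.0 FPKM in wild-type and at 29.96, 24.8 and 27.2 FPKM in transgenic mice (log2 fold change 0.56, standard error 0.10, adjusted p = 0.0127 by limma). *Prelid3b*, whose product carries phosphatidylserine between the mitochondrial membranes (named *Slmo2* in the table), was at 58.5, 59.6 and 53.4 FPKM in wild-type and at 110, 83.9 and 95.3 FPKM in transgenic mice (log2 fold change 0.74, adjusted p = 0.00701). Groups were apart for both. *Ptdss1*, which uses phosphatidylcholine instead, had means of 16.5 and 17.6 FPKM (log2 fold change 0.09, adjusted p = 0.487). *Triap1*, the partner of *Prelid3b*, had means of 17.6 and 19.3 FPKM (log2 fold change 0.13, adjusted p = 0.386).

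Of 5 tested enzymes that return a fatty acid to lysophospholipids, 2 fell, 0 rose and 3 did not pass. *Lpcat1* fell from 11.0, 12.4 and 12.4 FPKM in wild-type to 7.24, 8.61 and 8.14 FPKM in transgenic mice (log2 fold change -0.52, adjusted p = 0.0106 by limma). *Lpcat2*, known from macrophages, fell from 2.28, 2.06 and 2.51 FPKM to 0.923, 1.30 and 1.11 FPKM (log2 fold change -0.64, adjusted p = 0.0132, and 0.0547 without wild-type replicate 3). Macrophage markers (*Adgre1*, *Cd68*, *Csf1r*, *Cd163*, *Mrc1*) fell with them in 4 of 5 cases and summed to 147 to 186 FPKM in wild-type and 89.5 to 113 FPKM in transgenic mice. Their part in the fall of *Lpcat1* and *Lpcat2* was not tested. *Lpcat3*, the most abundant of the group, had means of 52.5 and 58.1 FPKM with overlapping mice (log2 fold change 0.15, adjusted p = 0.50).

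Among 14 tested genes of phospholipid breakdown 1 rose, 1 fell and 12 did not pass. *Enpp2*, which encodes autotaxin, the secreted enzyme that splits lysophosphatidylcholine into choline and lysophosphatidic acid, had the largest fall of all 10 groups. It was at 118, 125 and 119 FPKM in wild-type and at 24.7, 31.8 and 31.0 FPKM in transgenic mice (log2 fold change -2.02, standard error 0.11, adjusted p = 0.000231 by limma). *Lypla1*, a lysophospholipase that also removes palmitate from proteins, rose from 29.3, 28.1 and 28.3 FPKM to 50.3, 43.8 and 49.98 FPKM (log2 fold change 0.72, adjusted p = 0.0022). *Plaat3*, the phospholipase A of adipocytes, had means of 129 and 90.4 FPKM, with groups apart (log2 fold change -0.48, adjusted p = 0.0804). It passed the threshold without wild-type replicate 3 (0.018) and with quantile normalization (0.0293). *Gpcpd1*, which releases choline from glycerophosphocholine, had means of 10.02 and 13.0 FPKM (log2 fold change 0.35, adjusted p = 0.0565), and without wild-type replicate 2 it passed just under the threshold (0.04998).

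**Figure D4:**
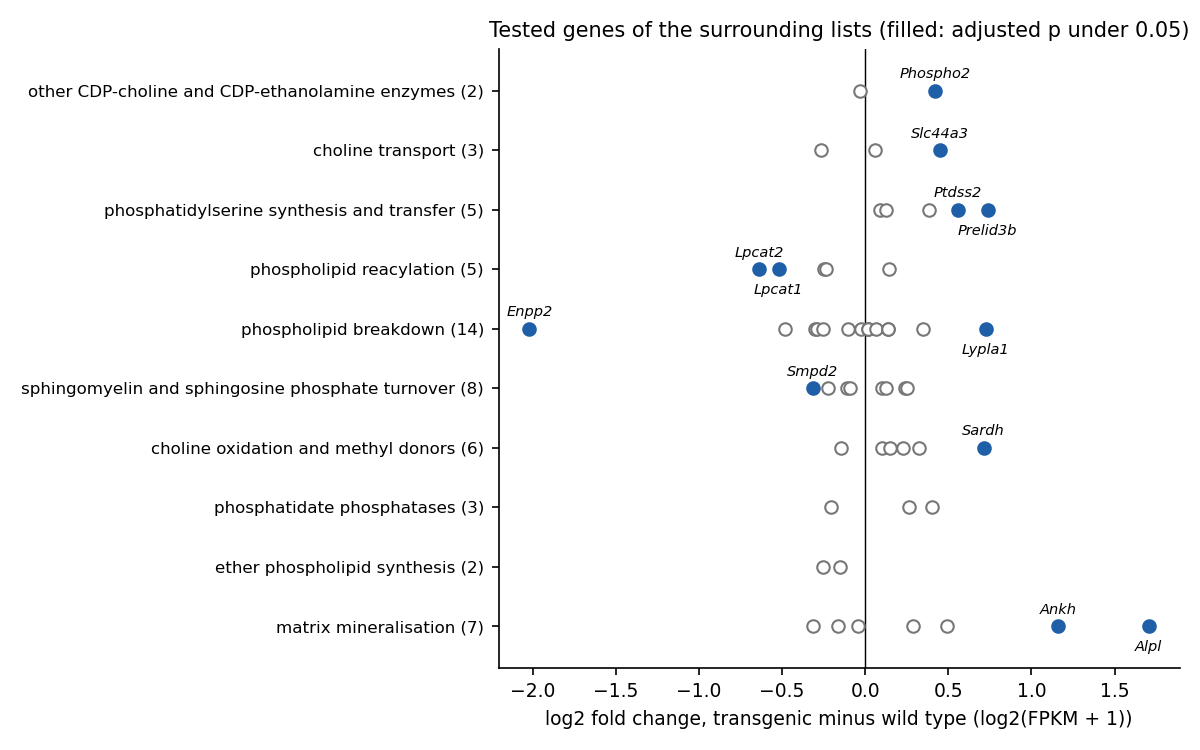
Log2 fold change (horizontal axis, transgenic minus wild type on the log2(FPKM + 1) scale) of each tested gene in 10 groups around the pathway, with the number tested in parentheses and genes at an adjusted p under 0.05 filled and named. *Enpp2* at -2.02 lies farthest to the left, *Alpl* at 1.71 farthest to the right, and 43 of the 55 genes did not pass.

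Few genes passed in the remaining lipid groups. Of 8 genes of sphingomyelin and sphingosine phosphate turnover, *Smpd2*, a neutral sphingomyelinase, fell from 9.69, 11.1 and 10.4 FPKM to 8.30, 8.59 and 7.59 FPKM ( log2 fold change -0.32, adjusted p = 0.0437 by limma), and that call was lost whichever mouse was left out (adjusted p 0.0553 to 0.133). Of 6 tested genes of choline oxidation and methyl donors, *Sardh*, the mitochondrial sarcosine dehydrogenase, rose from 8.14, 8.83 and 7.28 FPKM to 15.2, 14.1 and 12.4 FPKM (log2 fold change 0.71, adjusted p = 0.00533). *Chdh*, which begins choline oxidation, had means of 16.9 and 17.8 FPKM (log2 fold change 0.10, adjusted p = 0.71). None of the 3 phosphatidate phosphatases (*Lpin1*, *Lpin2*, *Lpin3*), which supply diacylglycerol, and 0 of 2 tested genes of ether phospholipid synthesis passed in limma at the adjusted threshold. At an unadjusted p under 0.05 *Lpin1* and *Lpin2* would count as higher. *Lpin1* was at 93.3, 87.8 and 79.7 FPKM in wild-type and 135, 98.8 and 114 FPKM in transgenic mice (log2 fold change 0.40, adjusted p = 0.0715, and 0.0365 without transgenic replicate 2).

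Genes known from matrix mineralization, whether they favour or oppose it, were measured as the last group, and 2 of 7 rose. *Alpl*, tissue-nonspecific alkaline phosphatase, was at 5.45, 3.79 and 3.09 FPKM in wild-type and at 18.5, 13.5 and 14.4 FPKM in transgenic mice (log2 fold change 1.71, standard error 0.19, adjusted p = 0.00203 by limma). *Ankh*, a transporter that controls extracellular pyrophosphate (named *Ank* in the table), was at 34.5, 40.2 and 32.1 FPKM in wild-type and at 95.9, 68.2 and 79.8 FPKM in transgenic mice (log2 fold change 1.16, adjusted p = 0.00292). *Spp1*, *Slc20a2*, *Slc20a1*, *Mgp* and *Enpp1* did not pass (adjusted p 0.0595 to 0.84), although *Spp1* did with eBayes without trend (0.0408). The means of *Enpp1*, the source of extracellular pyrophosphate, were 2.11 and 1.53 FPKM. *Alpl* and *Ankh* therefore differed in the same direction as *Phospho1*, by smaller factors.

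Markers of cells known for high *Phospho1* were read beside it. The 8 bone and cartilage markers (*Col2a1*, *Acan*, *Col10a1*, *Bglap*, *Ibsp*, *Sp7*, *Dmp1*, *Phex*) summed to 0.146 to 0.226 FPKM in wild-type and 0.0257 to 0.51 FPKM in transgenic mice, with *Ibsp* at 0 in all 6. Among erythroid genes, *Alas2*, the heme synthesis enzyme of red cell precursors, was at 4.04, 4.53 and 2.72 FPKM in wild-type and at 9.29, 6.58 and 9.19 FPKM in transgenic mice and rose (adjusted p = 0.0133 by limma), while *Slc4a1* and *Epb42* were each at 0.173 FPKM or less in every mouse. Brown adipocyte markers (*Ucp1*, *Cidea*, *Cox7a1*, *Cox8b*, *Elovl3*, *Dio2*, *Ppara*) rose in 6 of 7 cases and summed to 611 to 1053 FPKM in wild-type and 6165 to 7951 FPKM in transgenic mice. Skeletal muscle markers (7 of 8 with a row, of which 1 rose) summed to 47.0 to 151 FPKM in wild-type and to 144, 608 and 163 FPKM in transgenic mice. The mouse with the most muscle RNA, transgenic replicate 2, had the lowest *Phospho1* of its genotype. Wild-type replicate 2 likewise had the highest muscle sum (151 FPKM) and the lowest *Phospho1* (8.47 FPKM) of its genotype. These are only orders among the few mice of each genotype. Whether muscle RNA enters the level of *Phospho1* was not tested. Endothelial markers (111 to 122 and 124 to 129 FPKM, 1 of 5 higher), lymphocyte markers (141 to 182 and 97.7 to 146 FPKM, 1 of 6 lower) and epithelial markers (115 to 177 and 76.0 to 153 FPKM, 0 of 5 passing) moved by smaller factors than these. How far shifts in cell makeup enter the levels of the 9 genes was not tested.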

How the data were processed

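RNA of iWAT was sequenced by the study on an Illumina instrument as single-end reads of 100 bases, from TruSeq v2 libraries without strand. The authors mapped reads to mm10 with TopHat and deposited gene-level FPKM from Cufflinks. The submitters' processing notes name CASAVA 1.8.2, Bowtie2 2.1.0, TopHat2 2.0.9 and Cufflinks 2.2.1, and the annotation and options are not given in the sources used here. Reads and counts were not used, so depth is unknown and the low values of shallower libraries are less precise.

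From the deposited FPKM, log2(FPKM + 1) was fitted over the loci whose mean in either genotype was above 1 FPKM, using limma 3.58.1 in R 4.3.3 (no covariates, eBayes with trend). The tests were two-sided, with p-values adjusted by Benjamini-Hochberg over all tested loci and a threshold of 0.05. The study itself used Cuffdiff, which needs reads. An exact permutation test of 3 against 3 mice allows no two-sided p below 0.1 and was not used. A symbol on several rows (409 symbols) was taken from the row of highest mean, and 433 rows hold several symbols. The fit was first tested on simulated data. Positions and exon overlaps were taken from GENCODE M21 (GRCm38), and promoter sequences from RefSeq. Figures were drawn with matplotlib 3.10.9.

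The 10 genes and all gene lists were chosen with earlier results of these data known. Beyond them the text names *Hlx*, *Xist* and *Ucp1*, list genes with an adjusted p under 0.05 and every gene listed beside the CDP branches. It also names protein-coding genes whose exons overlap a listed gene, genes that share its locus, and the 5 loci most like *Phospho1* by each measure. Other list genes and marker genes, given as context, were named after their values were seen. Alternatives were another pseudocount (0.1), other filters, quantile and median-ratio scaling, eBayes without trend, a replicate block and each mouse left out in turn.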

Additional observations from a re-analysis of the deposited data

How the results depend on the processing

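The log2 fold change of *Phospho1* was between 3.96 and 4.29 in the 13 alternatives of the fit, and that of *Chpt1* between 0.62 (quantile normalization) and 0.98. Both genes were chosen by this contrast, so these ranges describe the values only. Of the 9 genes, 2 counted as higher without a filter on low values, 2 to 3 with a mouse left out (2 without wild-type replicate 3, transgenic replicate 1 or transgenic replicate 3) and 0 as lower in any setting. Over all loci 748 were higher and 381 lower without the filter, where all 19445 loci were tested, and 780 to 1295 were higher and 329 to 906 lower with a mouse left out. Of the genes around the pathway 5 were higher without the filter, and with a mouse left out 6 to 8 were higher. Signs changed for values close to 0, namely *Chka* (-0.046 to 0.078 with a mouse left out, below 0 without wild-type replicate 2 or transgenic replicate 3), *Cept1* (-0.13 to 0.062, above 0 without replicate 1 of either genotype) and *Selenoi* (-0.10 to 0.020, above 0 without transgenic replicate 2). The cause of these changes was not tested. *Prelid3b*, *Lpcat1*, *Lypla1*, *Enpp2*, *Sardh*, *Alpl* and *Ankh* passed in all 13. Without the filter *Ptdss2* (limma adjusted p = 0.0507), *Phospho2* (0.0539), *Pcyt1a* (0.0682), *Smpd2* (0.0764), *Pisd* (0.0979) and *Slc44a3* (0.126) missed the threshold, and without the trend *Smpd2* (0.0522) and *Slc44a3* (0.0543) did. In the other direction, *Spp1* passed without the trend (0.0408) and *Pla2g15* (0.0436) and *Plaat3* (0.0293) with quantile normalization.

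Replicate numbers are shared between genotypes, but same-numbered mice did not deviate together over loci (correlations 0.013, 0.034 and 0.070). With the replicate block 1230 loci were higher and 656 lower, 3 of the 9 genes counted as higher (*Pcyt1a* at an adjusted p of 0.0637, limma), and *Smpd2* lost its call at 0.0645.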
